A study of Mus musculus with 9 samples.

Results

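The data compared mouse primary calvarial pre-osteoblasts that carried an adenovirus for Hif1a (Ad-Hif1a) with the same kind of cells that carried a control adenovirus (Ad-C). All genes of the 3 Ad-Hif1a and 3 Ad-C libraries were used, 6 of the 9 libraries in the series. The other libraries carried a Hif2a adenovirus and entered 1 alternative fit. The cells came from the skulls of WT ICR pups aged 3 days, were infected on day 3 and were harvested on day 6 in osteogenic medium with 50 μg/ml L-AA (ascorbic acid) and 5 mM β-Gp (β-glycerophosphate). Culture was in normoxia, and no agent other than the virus separated the groups. Ad-Hif1a cells are labelled as Hif1a overexpression, so the comparison shows cells with forced Hif1a expression at normal oxygen. The virus dose for these libraries and the promoter that drives the inserted gene are not given in the sources used here.

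HIF-1α is the oxygen-regulated subunit of a transcription factor whose partner subunit is ARNT. At normal oxygen, prolyl hydroxylases of the EGLN family mark HIF-α subunits, the VHL protein binds the marked form, and the proteasome destroys it. When HIF-α escapes this, the dimer binds the letters ACGTG or GCGTG in DNA and raises genes for glucose uptake, glycolysis and vessel growth. In bone, osteoblasts lay down the mineralized matrix and also release RANKL, the ligand that osteoclast precursors need, and OPG, its decoy receptor.

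Promoter sequence is shown here for 7 genes that rose, because 2 kinds of response are described below: glycolytic and oxygen-sensing genes known as HIF targets, and cytokine genes known as targets of NF-κB, the main transcription factor of inflammation. These genes were chosen after their values were seen. The 250 bases before each start site, from RefSeq on GRCm38.p6, were searched on both strands for ACGTG or GCGTG, the core of the HIF site, and for GGG, any 2 bases and TTTCC, an NF-κB-like site. ACGTG and its complement CACGT overlap in CACGTG. Over the 300 bases around the start, 43.8% of 32851 mouse promoters held the HIF letters and 1.63% held the NF-κB-like letters. Capitals mark the matches below, and each stretch reads 5′ to 3′ on the strand of its gene. The HIF letters were found for the glucose transporter gene Slc2a1 (chromosome 4, plus strand, 81 to 12 bases before the start), the lactate exporter gene Slc16a3 (chromosome 11, plus strand, 47 to 1), the phosphofructokinase gene Pfkl (chromosome 10, minus strand, 119 to 75), the prolyl hydroxylase gene Egln3 (chromosome 12, minus strand, 249 to 205) and the chemokine gene Cxcl1 (chromosome 5, plus strand, 216 to 172):
Slc2a1: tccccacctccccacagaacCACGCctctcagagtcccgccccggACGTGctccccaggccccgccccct
Slc16a3: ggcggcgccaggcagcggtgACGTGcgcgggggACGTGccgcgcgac
Pfkl: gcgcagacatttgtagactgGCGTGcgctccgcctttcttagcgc
Egln3: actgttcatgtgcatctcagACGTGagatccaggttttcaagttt
Cxcl1: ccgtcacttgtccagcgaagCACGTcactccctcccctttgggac
The NF-κB-like letters were found for Cxcl1 (109 to 42 bases before the start), the cytokine gene Il6 (chromosome 5, plus strand, 64 to 15) and the NF-κB inhibitor gene Nfkbia (chromosome 12, minus strand, 49 to 1):
Cxcl1: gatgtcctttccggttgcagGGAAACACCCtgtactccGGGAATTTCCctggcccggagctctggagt
Il6: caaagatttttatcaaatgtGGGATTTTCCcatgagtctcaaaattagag
Nfkbia: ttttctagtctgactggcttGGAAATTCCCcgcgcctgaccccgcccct
The 250 bases upstream of Saa3, Lcn2, Mmp3, C3, Tnfsf11 and Twist2 held neither set of letters, and bases farther from the start were not searched. The study describes putative HIF-1α binding letters in the Twist2 promoter and reports HIF-1α bound there by chromatin immunoprecipitation. A promoter was at hand for 77.4% of the tested genes, 74.2% of those that rose over 2-fold and 75.4% of those that fell over 2-fold, all under 80%, so the shares of promoters with each motif in these groups were not compared.

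Libraries held 17444224 to 18623403 counts with Ad-C and 16239634 to 17696512 with Ad-Hif1a. Levels are given as CPM, counts scaled to a common library total with TMM factors, in the order of replicates 1, 2 and 3. The first principal component of log2 CPM held 75.6% of the variance and separated the groups, at -49.5 to -48.9 for Ad-C and 37.4 to 62.9 for Ad-Hif1a. Ad-C libraries correlated at r = 0.989 to 0.991 across genes and Ad-Hif1a libraries at 0.968 to 0.986, where genes are not independent replicates. Libraries within a group differed by more than counting noise, with a chi-square per degree of freedom of 5.37 to 8.51 between Ad-C libraries and 26.7 to 94.5 between Ad-Hif1a libraries. Mitochondrial transcripts held 5.73% to 6.17% of the counts with Ad-C and 2.84%, 3.56% and 5.33% with Ad-Hif1a. The study states in general that its experiments were repeated independently, but the labels do not say whether these replicates came from separate cultures or animals, and p-values measure the spread between these libraries. Osteoblast markers were counted in every library, such as Alpl, Runx2 and Sp7, which fell, and Postn, which rose, as described below. The list of osteoblast markers summed to 70300 to 76000 CPM with Ad-C and 65000 to 66300 CPM with Ad-Hif1a. In bulk RNA, fewer cells of a type and less RNA per cell cannot be told apart.

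The change also moved with transcript length. Among the 2666 tested genes with the shortest transcripts, the median log2 difference between Ad-Hif1a and Ad-C was 0.52, 0.18 and 0.12 in replicates 1, 2 and 3, with 729 genes that rose and 187 that fell. Among the 2666 with the longest, it was -0.47, -0.18 and -0.08, with 251 that rose and 796 that fell. Within the Ad-Hif1a group, library 1 lay 0.34 above the mean of the group's other libraries for the shortest (median over genes), and library 3 lay 0.29 below. For the longest, library 1 lay 0.32 below and library 3 lay 0.29 above. Ad-C libraries stayed within 0.08. What this shift comes from was not tested. A fit with transcript length as an offset, added after the data were seen, is therefore given beside the lists whose counts it moved by over 1.5 times.

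**Figure D1:**
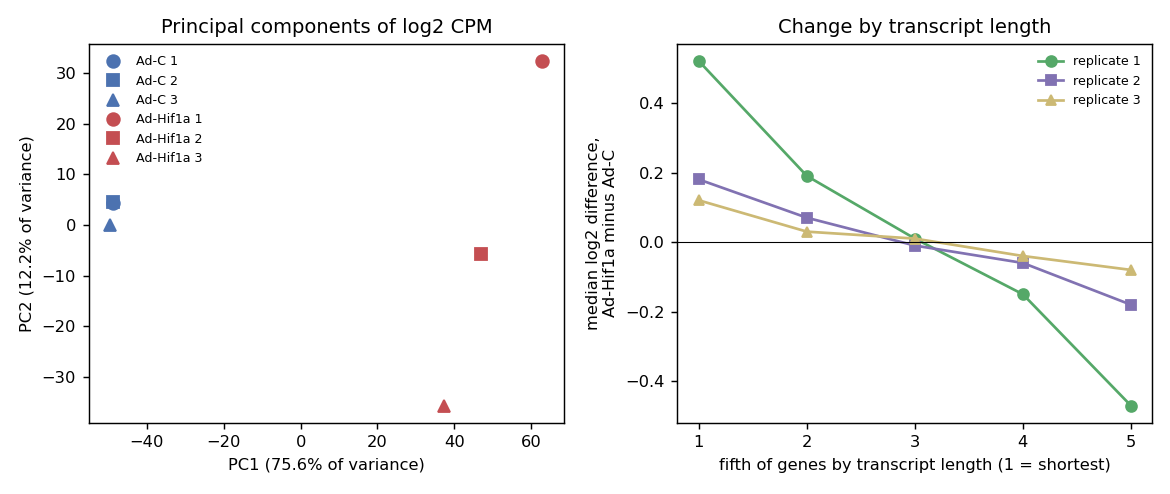
Left, principal components of log2 CPM for the 3 Ad-C and 3 Ad-Hif1a libraries; right, median log2 difference between Ad-Hif1a and Ad-C in each replicate for the tested genes in 5 equal groups by transcript length. The groups separate on the first component (75.6% of the variance), the Ad-Hif1a libraries spread along the second (12.2%), and the median runs from 0.52 to -0.47 in replicate 1.

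Of 14062 genes tested, 4706 changed at an adjusted p under 0.05 (33.5%), of which 2390 rose (17%) and 2316 fell (16.5%). The median log2 fold change over all genes was 0.01. Over 2-fold, 856 genes rose (6.09%) and 820 fell (5.83%). The large changes were mainly rises: 168 genes rose over 8-fold and 58 fell, and 47 rose over 32-fold and 5 fell. Of the genes past 2-fold, 850 of 856 that rose and 815 of 820 that fell had groups that did not overlap. Of all tested genes, 25.4% had Ad-Hif1a wholly above Ad-C and 25.1% wholly below. Genes past 2-fold were picked from the same 6 libraries, and that choice favors groups without overlap, so this is no separate check. With replicate 2 of Ad-Hif1a left out 2625 genes passed, and with replicate 2 of Ad-C left out 2649 did. Replicate number is a term of the fit, so the library left without its partner adds nothing to the group difference. Both fits therefore rest on the same remaining pairs, with fewer degrees of freedom, and are not separate checks. The same holds wherever a replicate of either group is left out below. The fit of all 9 libraries, whose estimate of the spread includes the Hif2a libraries, called 1624 of 14413 tested (11.3%), 871 risen and 753 fallen. Counts in the gene lists below are to be read against 17% risen and 16.5% fallen in the main fit, and against these counts in the fit of all 9. Some genes named below passed the filter on low counts through Ad-Hif1a alone, such as Nos2, Cxcl3, Il6, Il13ra2, Mmp10 and C6. Genes of this kind could be called only as rises.

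**Figure D2:**
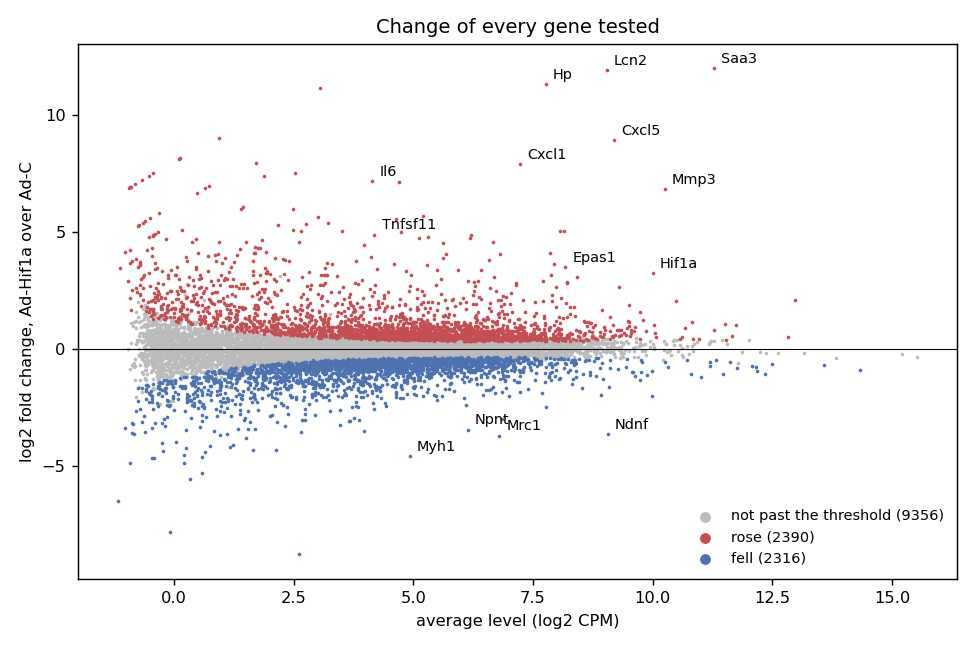
Log2 fold change (Ad-Hif1a over Ad-C, vertical axis) against average log2 CPM (horizontal axis) for the 14062 genes tested, with genes that rose or fell at an adjusted p under 0.05 in color. The 2390 risen genes reach past a log2 fold change of 11, and the fallen genes run below 0 over all levels.

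The targeted gene was examined first. Hif1a stood at 194, 191 and 186.5 CPM with Ad-C and 1262, 1961 and 2364 CPM with Ad-Hif1a (log2 fold change 3.24, SE 0.195, adjusted p = 7.71e-06). All Ad-Hif1a libraries lay far above the Ad-C libraries, and library 1 was the lowest of the 3. Reads of the inserted gene and of the cells' own Hif1a cannot be told apart in these counts. Epas1, which encodes HIF-2α, stood at 47.4, 41.99 and 48.9 CPM with Ad-C and 414.5, 494 and 690.4 CPM with Ad-Hif1a (log2 fold change 3.502, SE 0.162, adjusted p = 1.58e-06). Both genes were lowest in Ad-Hif1a 1 and highest in Ad-Hif1a 3, and neither overlapped with Ad-C. As both rose in the same libraries, their separate parts in the changes below were not tested.

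Of 16 tested genes that control HIF, 6 rose and 2 fell, against 17% and 16.5% of all genes tested. Their median log2 fold change was 0.06, against 0.01. The 6 include Epas1 and also Hif1a, the gene that the virus carries, whose rise was set by the design. Egln3, a prolyl hydroxylase that marks HIF-α for destruction and is itself a HIF target, stood at 0.611, 0.506 and 0.536 CPM with Ad-C and 6.4, 5.32 and 4.99 CPM with Ad-Hif1a (log2 fold change 3.32, SE 0.261, adjusted p = 3.47e-05). Its level was under 1 CPM in every Ad-C library and higher in every Ad-Hif1a library. Arnt2, a dimer partner of HIF-α, fell from 59.02, 53.6 and 56.7 CPM to 23.1, 28.7 and 29.8 CPM (log2 fold change -1.06, SE 0.139, adjusted p = 0.000633). The main partner Arnt had a log2 fold change of -0.03 ± 0.135 (SE) with overlapping groups (adjusted p = 0.874), and the main hydroxylase Egln1 one of -0.07 ± 0.137 (adjusted p = 0.725); these were named after their values were seen. With all 9 libraries fitted, 3 of the 16 rose and 1 fell, and without replicate 2 of either group 3 rose. In each of these fits Hif1a was among those that rose.

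Most glycolytic genes rose. Of 21 tested, 15 rose and none fell, with a median log2 fold change of 0.69. Slc2a1, the glucose transporter GLUT1, stood at 15.01, 15.5 and 18.2 CPM with Ad-C and 57.5, 50.5 and 47.1 CPM with Ad-Hif1a (log2 fold change 1.67, SE 0.149, adjusted p = 6.58e-05). Slc16a3, which exports lactate, stood at 2.06, 1.69 and 2.305 CPM with Ad-C and 17.3, 11.5 and 8.02 CPM with Ad-Hif1a (log2 fold change 2.55, SE 0.258, adjusted p = 0.000142). In both, Ad-Hif1a 1 was highest and Ad-Hif1a 3 lowest of the Ad-Hif1a libraries, and the lowest was well above every Ad-C library. Pfkl, the liver-type phosphofructokinase, rose from 31.1, 28.7 and 31.2 CPM to 112, 84.3 and 59.01 CPM (log2 fold change 1.44 ± 0.178 SE), and Hk2, the hexokinase that traps glucose in the cell, rose from 26.7, 26.98 and 23.9 CPM to 58.1, 51.2 and 42.1 CPM (0.95 ± 0.129). Further enzymes, named after their values were seen, rose less: Gapdh by 0.83 on the log2 scale, Ldha by 0.82 and Pgk1 by 0.59. Fitted with all 9 libraries, 5 of the 21 rose, Slc2a1, Slc16a3, Pfkl, Hk2 and Gapdh. With transcript length as an offset 14 rose and 1 fell, and without replicate 3 of either group 1 fell.

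Of 28 other known HIF targets, 15 rose and 3 fell, with a median of 0.58. Angptl4, a secreted inhibitor of lipoprotein lipase, stood at 11.45, 14.6 and 12.8 CPM with Ad-C and 192, 166 and 179 CPM with Ad-Hif1a (log2 fold change 3.796, SE 0.152, adjusted p = 8.5e-07). Nos2, the inducible nitric oxide synthase, which NF-κB also drives, stood at 0.333, 0.337 and 0.268 CPM with Ad-C and 12.3, 17.8 and 17.5 CPM with Ad-Hif1a (log2 fold change 5.63, SE 0.251, adjusted p = 1.43e-06). In neither of these did the groups overlap. Collagen-modifying hydroxylases, named after their values were seen, also rose: P4ha2 with a log2 fold change of 1.302 ± 0.135 (SE) and Plod2 with 1.32 ± 0.15. Tfrc, the transferrin receptor and also a known HIF target, fell from 42.2, 38.2 and 41.01 CPM to 19.03, 20.3 and 19.02 CPM (log2 fold change -1.055, SE 0.13, adjusted p = 0.00046). Over all 9 libraries, 9 rose and 2 fell.

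Ligands that act on vessels moved in both directions, with 7 of 17 up, 2 down and a median of 0.38. Cxcl12, a chemokine that holds and attracts CXCR4+ cells, stood at 175, 175 and 166 CPM with Ad-C and 914, 1088 and 1245 CPM with Ad-Hif1a (log2 fold change 2.64, SE 0.143, adjusted p = 4.13e-06). Vegfc, the lymphatic growth factor, rose from 1.89, 1.855 and 1.715 CPM to 11.2, 11.1 and 12.95 CPM (log2 fold change 2.68, SE 0.193, adjusted p = 2.04e-05), and Apln, the ligand of the apelin receptor, rose from 0.389, 0.562 and 0.5896 CPM to 3.69, 3.78 and 4.74 CPM (log2 fold change 2.97, SE 0.294, adjusted p = 0.000124). Vegfa, the main endothelial growth factor and a classic HIF target, rose by less, from 22.6, 26.03 and 25.9 CPM to 48.8, 61.99 and 75.3 CPM (log2 fold change 1.302, SE 0.135, adjusted p = 0.000161). Vegfa was lowest in Ad-Hif1a 1 and highest in Ad-Hif1a 3, and all 3 lay above Ad-C. This is the order seen for Hif1a and also for the median of the longest transcripts, and its source was not tested. Angpt2, an angiopoietin, fell from 58.6, 57.7 and 59.98 CPM to 15.6, 13.8 and 14.7 CPM (log2 fold change -2.002, SE 0.129, adjusted p = 1.03e-05). In the fit of all 9 libraries 5 rose and 1 fell.

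The largest changes in the data were in acute-phase genes, the secreted proteins that rise in inflammation. Of 17 listed, 13 passed the filter on low counts, some of them through Ad-Hif1a alone. These 13 rose, with a median of 4.75, also in the fit of all 9 libraries. Saa3, a serum amyloid A, stood at 1.67, 1.24 and 0.7504 CPM with Ad-C and 7240, 4349 and 3390 CPM with Ad-Hif1a (log2 fold change 11.99, SE 0.212, adjusted p = 1.39e-08). In raw counts this was 30, 22 and 14 with Ad-C and 125570, 73588 and 53656 with Ad-Hif1a. Lcn2, lipocalin 2, which withholds bacterial iron carriers, stood at 0.7225, 0.112 and 0 CPM with Ad-C and 1196, 1015 and 951 CPM with Ad-Hif1a (log2 fold change 11.897, SE 0.419, adjusted p = 4.26e-07). Hp, haptoglobin, which binds free hemoglobin, stood at 0.222, 0.112 and 0.161 CPM with Ad-C and 578, 419 and 312 CPM with Ad-Hif1a (log2 fold change 11.297, SE 0.22, adjusted p = 1.63e-08). Each of the 3 was highest in Ad-Hif1a 1 and lowest in Ad-Hif1a 3, and under 2 CPM in every Ad-C library. This order is against that of Hif1a itself and is also that of the median of the shortest transcripts, and its source was not tested. Serpina3i, a serine protease inhibitor, rose from 2.501, 2.64 and 3.11 CPM to 73.4, 78.5 and 77.2 CPM (log2 fold change 4.79, SE 0.155, adjusted p = 2.76e-07). Saa1, Saa2 and Saa3 share sequence, as do the Serpina3 genes, so the split of reads between them is uncertain. With a minimum of 10 counts in every library, 8 of these genes were left to be called.

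Complement genes moved in both directions. Of 19 tested, 10 rose and 5 fell, against 17% and 16.5% of all genes, with a median of 0.48. C3, the central component, stood at 16.5, 14.3 and 19.2 CPM with Ad-C and 531, 554 and 571 CPM with Ad-Hif1a (log2 fold change 5.06, SE 0.148, adjusted p = 2.08e-07), and Cfb, factor B of the alternative pathway, stood at 7.45, 9.39 and 8.201 CPM with Ad-C and 195, 199 and 194 CPM with Ad-Hif1a (log2 fold change 4.56, SE 0.141, adjusted p = 2.2e-07). The Ad-Hif1a libraries were close to each other for both genes and far above the Ad-C libraries. Serping1, the C1 inhibitor, rose from 149, 141 and 151 CPM to 512, 493 and 516 CPM (log2 fold change 1.79, SE 0.115, adjusted p = 1.04e-05). C1qb, a chain of C1q made mainly by macrophages, fell from 73.4, 71.45 and 67.6 CPM to 22.4, 18.02 and 13.4 CPM (log2 fold change -2.005, SE 0.152, adjusted p = 2.79e-05); the C1q chains are related in sequence.

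Most macrophage markers fell beside these genes. Of 16 tested, none rose and 13 fell, with a median of -1.35, and 10 fell in the fit of all 9 libraries. Their summed level was 3850 to 4110 CPM with Ad-C and 1660 to 1810 CPM with Ad-Hif1a. Mrc1, the mannose receptor, stood at 204, 215 and 198 CPM with Ad-C and 11.9, 17.3 and 18.7 CPM with Ad-Hif1a (log2 fold change -3.71, SE 0.164, adjusted p = 1.43e-06). Cd68, a lysosomal macrophage protein, fell from 154, 141 and 146.5 CPM to 45.4, 44.8 and 40.2 CPM (-1.76 ± 0.119), and Csf1r, the M-CSF receptor, fell from 148, 156 and 149 CPM to 42.8, 44.8 and 50.3 CPM (-1.72 ± 0.121). The part of these cells in the inflammatory genes described here was not tested. Of 10 neutrophil markers listed 3 were tested and 2 rose (none at a minimum of 10 counts in every library), and their list summed to 2.89 to 4.04 CPM with Ad-C and 7.45 to 9.91 CPM with Ad-Hif1a, low in every library.

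Most CXC chemokines, many of which attract neutrophils, rose: 8 of 12, with 2 that fell and a median of 2.57. Cxcl5 stood at 1.89, 2.92 and 2.41 CPM with Ad-C and 1100, 1200 and 1198 CPM with Ad-Hif1a (log2 fold change 8.92, SE 0.186, adjusted p = 1.99e-08). Cxcl1, whose promoter is printed above, stood at 1.28, 1.52 and 0.965 CPM with Ad-C and 295, 300.4 and 302 CPM with Ad-Hif1a (log2 fold change 7.898, SE 0.186, adjusted p = 4.6e-08). The 3 Ad-Hif1a libraries differed little from each other for both. Cxcl3 rose from 0.333, 0.3935 and 0.214 CPM to 11.9, 12.65 and 14.85 CPM and Cxcl14 from 32.6, 28.8 and 34.1 CPM to 193, 165 and 179.6 CPM, with log2 fold changes of 5.36 ± 0.271 and 2.49 ± 0.121 (SE). Cxcl10, an interferon-induced chemokine that attracts T cells, fell from 40.35, 45.03 and 32.75 CPM to 6.804, 11.6 and 12.95 CPM (log2 fold change -1.94, SE 0.217, adjusted p = 0.000252). The fall of Cxcl10 did not pass in the fit of all 9 libraries (adjusted p = 0.138), where 7 members rose and none fell, and without replicate 2 of either group 1 fell.

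CC chemokines, which mostly attract monocytes and lymphocytes, rose in 10 of 14 cases and fell in 1, with a median of 2.09. Ccl7 stood at 12.2, 14.4 and 11.2 CPM with Ad-C and 213, 229 and 193 CPM with Ad-Hif1a (log2 fold change 4.07, SE 0.13, adjusted p = 2.72e-07), and Ccl2, the main monocyte attractant, stood at 35.5, 38.3 and 35.5 CPM with Ad-C and 380.3, 457 and 526 CPM with Ad-Hif1a (log2 fold change 3.63, SE 0.143, adjusted p = 8.45e-07). For both, every Ad-Hif1a library was far above every Ad-C library. Ccl5 rose by 2.901 ± 0.129 and Ccl8 by 4.52 ± 0.207 on the log2 scale (SE). Ccl9 fell from 57.6, 69.15 and 56.9 CPM to 39.8, 43.4 and 36.96 CPM (log2 fold change -0.61, SE 0.119, adjusted p = 0.00501). The fall of Ccl9 was lost in the fit of all 9 libraries (adjusted p = 0.0615) and without replicate 2 of either group, where no member fell.

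Of 19 cytokines tested, 8 rose and 2 fell, with a median of 0.32. Il6, which drives the acute-phase response and acts on bone cells, stood at 0, 0.506 and 0.214 CPM with Ad-C and 29.5, 36.05 and 39.5 CPM with Ad-Hif1a (log2 fold change 7.17, SE 0.378, adjusted p = 3.48e-06). Il6 was absent from the counts of Ad-C 1 and had 9 and 4 counts in the other Ad-C libraries, against 512, 610 and 625 with Ad-Hif1a. Il33, an alarmin, rose from 2.11, 1.405 and 1.98 CPM to 14.9, 16.4 and 18.1 CPM (log2 fold change 3.16, SE 0.203, adjusted p = 1.03e-05), and Lif, of the interleukin 6 family, rose from 2.61, 2.59 and 2.57 CPM to 11.4, 13.6 and 15.5 CPM (log2 fold change 2.37, SE 0.185, adjusted p = 3.34e-05). Il18, a cytokine processed by the inflammasome, fell from 10.6, 13.15 and 9.76 CPM to 4.32, 4.43 and 3.79 CPM (log2 fold change -1.41, SE 0.172, adjusted p = 0.000426). Among 23 receptors and sensors, 9 rose and 5 fell, against 17% and 16.5% of all genes, with a median of 0.30. Il1rl1, the receptor of IL-33, rose from 15.6, 22.15 and 19.1 CPM to 136, 133 and 138 CPM (log2 fold change 2.85, SE 0.145, adjusted p = 2.82e-06), and Fas, the death receptor, rose from 26.1, 25.7 and 25.9 CPM to 95.1, 109 and 98.05 CPM (log2 fold change 1.96, SE 0.124, adjusted p = 1e-05). Tlr1, a partner of the bacterial lipoprotein sensor TLR2, fell from 20.3, 20.1 and 18.1 CPM to 7.495, 9.396 and 13.4 CPM (log2 fold change -0.98, SE 0.2, adjusted p = 0.00605). With all 9 libraries fitted, 5 cytokines rose and 1 fell, 5 receptors rose and 1 fell, and Tlr1 did not pass (adjusted p = 0.126). Without replicate 2 of either group 1 member of each list fell, and at a minimum of 10 counts 5 cytokines rose.

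The NF-κB genes, its subunits and the genes that feed back on it, rose in 15 of 22 cases and fell in 1, with a median of 0.66. Nfkbiz, a nuclear co-activator of Il6 and Lcn2, stood at 7.11, 8.15 and 8.201 CPM with Ad-C and 68.4, 82.02 and 98.2 CPM with Ad-Hif1a (log2 fold change 3.39, SE 0.142, adjusted p = 1.1e-06). Zc3h12a, an RNase that degrades cytokine mRNA, stood at 3.89, 3.71 and 3.22 CPM with Ad-C and 40.99, 45.6 and 47.2 CPM with Ad-Hif1a (log2 fold change 3.63, SE 0.162, adjusted p = 1.43e-06). Sod2, the mitochondrial superoxide dismutase, rose from 45.8, 45.25 and 47.7 CPM to 494, 410 and 362 CPM (3.18 ± 0.143 SE), and Bcl3, a nuclear IκB, rose from 7.002, 6.58 and 6.915 CPM to 41.3, 35.2 and 35.2 CPM (2.44 ± 0.142). None of these overlapped between the groups. Nfkbia, the inhibitor whose promoter is printed above, rose with a log2 fold change of 1.94 ± 0.179 (SE). Rel, the c-Rel subunit, fell from 20.6, 17.65 and 21.4 CPM to 11.4, 14.5 and 14.5 CPM (log2 fold change -0.565, SE 0.157, adjusted p = 0.0239), a call lost in the fit of all 9 libraries (adjusted p = 0.0922), without replicate 2 of either group and with the length offset (adjusted p = 0.103). Fitted with all 9 libraries, 11 members rose and none fell, and without replicate 2 of either group 9 rose and none fell.

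**Figure D3:**
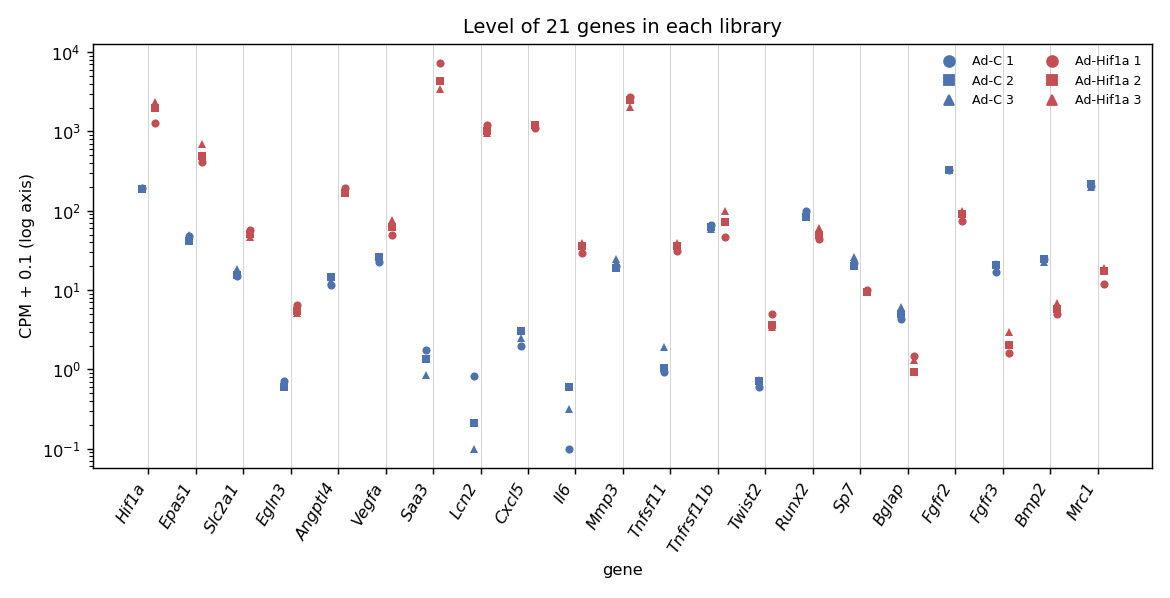
CPM plus 0.1 on a log axis for 21 genes in each of the 3 Ad-C and 3 Ad-Hif1a libraries, 1 point per library. The groups are apart for every gene except Tnfrsf11b, and Saa3 goes from under 2 CPM with Ad-C to at least 3390 CPM with Ad-Hif1a.

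Prostaglandin genes rose in 7 of 15 cases and fell in 1, with a median of 0.63. Ptgs2, the inducible cyclooxygenase COX-2, stood at 13.45, 10.9 and 10.35 CPM with Ad-C and 56.7, 78.5 and 98.75 CPM with Ad-Hif1a (log2 fold change 2.72, SE 0.215, adjusted p = 3.49e-05). Its level was lowest in Ad-Hif1a 1, and all 3 libraries were above Ad-C. Ptgfr, the prostaglandin F receptor, rose from 1.445, 1.63 and 1.07 CPM to 5.02, 6.855 and 6.89 CPM (log2 fold change 2.17, SE 0.247, adjusted p = 0.000278), and Hpgd, which inactivates prostaglandins, fell from 201, 223 and 198 CPM to 91.2, 90.8 and 94.1 CPM (log2 fold change -1.17, SE 0.117, adjusted p = 0.000129). Without replicate 1 of either group 3 members fell, with the length offset 2 fell, and in the fit of all 9 libraries 5 rose and 1 fell.

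Antigen presentation genes rose in 11 of 14 cases, with none that fell and a median of 0.97. H2-K1, a classical MHC class I heavy chain, stood at 303, 300.4 and 302 CPM with Ad-C and 1442, 1124 and 884.5 CPM with Ad-Hif1a (log2 fold change 1.901, SE 0.154, adjusted p = 4.02e-05), and H2-D1 stood at 436, 413 and 437 CPM with Ad-C and 1343, 1304 and 1201 CPM with Ad-Hif1a (log2 fold change 1.58, SE 0.122, adjusted p = 3.11e-05). H2-Q4 and H2-T23 had log2 fold changes of 1.99 ± 0.118 and 1.45 ± 0.116 (SE). These genes are near-identical in parts, so reads may be split between them. Over all 9 libraries, 6 rose. Interferon-stimulated genes as a list did not move 1 way: 8 of 29 rose and 8 fell, against 17% and 16.5% of all genes, with a median of 0.00. Zbp1, a sensor of left-handed nucleic acid, rose from 19.2, 20.2 and 18.1 CPM to 95.4, 83.6 and 68.9 CPM (log2 fold change 2.096, SE 0.135, adjusted p = 1.03e-05), and Irf7 rose from 53.1, 55.4 and 50.01 CPM to 145, 125 and 111 CPM (log2 fold change 1.26, SE 0.123, adjusted p = 0.000116). The antiviral genes Mx1 and Rsad2 fell, with log2 fold changes of -1.87 ± 0.208 and -1.465 ± 0.146 (SE) and adjusted p = 0.000247 and 0.000127, and in the fit of all 9 libraries, where 2 members rose and none fell, neither passed (adjusted p = 0.105 and 0.136). Of these genes, 3 rose and 4 fell without replicate 2 of Ad-C, and 4 rose and 3 fell without replicate 2 of Ad-Hif1a.

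Matrix metalloproteinases, which cut collagen and other matrix proteins, rose in 9 of 15 cases and fell in 2, with a median of 0.68. Mmp3, stromelysin, stood at 20.2, 18.8 and 24.8 CPM with Ad-C and 2715, 2514 and 2020 CPM with Ad-Hif1a (log2 fold change 6.82, SE 0.209, adjusted p = 2.2e-07). All Ad-Hif1a libraries were at 2020 CPM or more, and no Ad-C library passed 24.8 CPM. Mmp8 rose from 0.445, 0.956 and 0.643 CPM to 21.45, 22.99 and 22.1 CPM (log2 fold change 5.02, SE 0.233, adjusted p = 1.58e-06) and Mmp10 from 0.111, 0 and 0.107 CPM to 5.65, 4.55 and 5.62 CPM (log2 fold change 6.045, SE 0.447, adjusted p = 2.44e-05). Mmp2, gelatinase A, rose from 1144, 1115 and 1171 CPM to 2131, 2147 and 2097 CPM (log2 fold change 0.89, SE 0.121, adjusted p = 0.000736), and Mmp16, a membrane-bound member, fell from 71.1, 65.8 and 65.1 CPM to 35.5, 42.3 and 46.4 CPM (log2 fold change -0.71, SE 0.138, adjusted p = 0.00491), a call lost in the fit of all 9 libraries (adjusted p = 0.14). In that fit 7 rose and none fell, and without replicate 2 of either group 5 rose and 1 fell. Protease inhibitors and ADAMTS proteases rose in 7 of 16 cases and fell in 5, against 17% and 16.5% of all genes, with a median of 0.15. Timp1, an inhibitor of these metalloproteinases, rose from 558, 579 and 544 CPM to 2770, 2325 and 1899 CPM (log2 fold change 2.04, SE 0.143, adjusted p = 1.71e-05), Serpinb2 rose from 1.501, 1.18 and 1.18 CPM to 5.71, 5.79 and 10.1 CPM (2.44 ± 0.268 SE), and Plau, urokinase, fell from 49.9, 53.2 and 49.85 CPM to 25.5, 32.6 and 27.4 CPM (log2 fold change -0.85, SE 0.126, adjusted p = 0.00122). In the fit of all 9 libraries 7 rose and 1 fell, and without replicate 2 of either group 3 fell.

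Genes without a single count in the 3 Ad-C libraries made up 11 of the tested genes, and all 11 rose, as they passed the filter on low counts through Ad-Hif1a alone. Saa2 had 409, 272 and 156 counts with Ad-Hif1a, at least 296-fold higher against a floor of 3 counts over the Ad-C group. The antimicrobial lectin Reg3g had 55, 58 and 72 counts (at least 65.5-fold higher), the terminal complement component C6 had 17, 15 and 12 (at least 15.6-fold) and the collagenase Mmp1a had 16, 10 and 16 (at least 14.9-fold). These were named after their values were seen, and the bounds cover counting error only.

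Of the 20 osteoblast transcription factors tested, 10 fell and 1 rose, with a median of -0.32. Runx2, the master regulator of osteoblasts, stood at 97.9, 83.99 and 97.5 CPM with Ad-C and 43.65, 49.3 and 61.2 CPM with Ad-Hif1a (log2 fold change -0.87, SE 0.135, adjusted p = 0.0016). Sp7, osterix, which acts after Runx2, stood at 22.1, 19.9 and 25.7 CPM with Ad-C and 9.802, 9.28 and 9.41 CPM with Ad-Hif1a (log2 fold change -1.24, SE 0.149, adjusted p = 0.000384). The groups did not overlap for either gene. Mef2c, a factor of bone and muscle cells, fell from 25.2, 25.9 and 26.3 CPM to 4.67, 7.03 and 8.47 CPM (log2 fold change -1.97, SE 0.183, adjusted p = 8.52e-05), and Id2, a BMP-induced inhibitor of bHLH factors, fell from 75.6, 63.5 and 64.7 CPM to 12.3, 17.1 and 23.4 CPM (log2 fold change -1.98, SE 0.206, adjusted p = 0.000164). The fall of Runx2 did not pass in the fit of all 9 libraries (adjusted p = 0.0762), where 3 of the 20 fell and 1 rose, and without replicate 2 of either group 5 fell.

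Twist2, a bHLH factor that binds RUNX2 and blocks it, was the member that rose. It stood at 0.5002, 0.618 and 0.643 CPM with Ad-C and 4.901, 3.49 and 3.35 CPM with Ad-Hif1a (log2 fold change 2.704, SE 0.311, adjusted p = 0.000299), with 9, 11 and 12 counts in the Ad-C libraries and 85, 59 and 53 in the Ad-Hif1a libraries. Its close relative Twist1 stood at 115, 109.6 and 106 CPM with Ad-C and 72.6, 95.3 and 123 CPM with Ad-Hif1a, with overlapping groups (log2 fold change -0.22, SE 0.165, adjusted p = 0.334). Without replicate 3 of either group Twist1 had a log2 fold change of -0.44 and passed (adjusted p = 0.0236 and 0.0245), and 2 members of the list rose without replicate 3 of Ad-Hif1a and with the length offset. Twist2 was not among the genes with at least 10 counts in every library.

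Genes of bone matrix and mineralization fell in 7 of 16 cases and rose in 2, with a median of -0.29. Bglap, which like Bglap2 encodes osteocalcin, stood at 4.17, 4.89 and 6.004 CPM with Ad-C and 1.38, 0.827 and 1.2 CPM with Ad-Hif1a (log2 fold change -2.13, SE 0.271, adjusted p = 0.000533). Bglap2 stood at 7.725, 6.63 and 6.38 CPM with Ad-C and 2.595, 1.596 and 0.758 CPM with Ad-Hif1a (log2 fold change -2.12, SE 0.283, adjusted p = 0.000682). The Bglap genes are near-identical, so the split of reads between them is uncertain. Alpl, tissue non-specific alkaline phosphatase, stood at 56.02, 51.8 and 59.3 CPM with Ad-C and 27.3, 24.8 and 24.96 CPM with Ad-Hif1a (log2 fold change -1.115, SE 0.125, adjusted p = 0.000261), and Ank, which exports pyrophosphate, fell from 71.02, 74.5 and 70.5 CPM to 26.2, 33.8 and 38.9 CPM (log2 fold change -1.14, SE 0.143, adjusted p = 0.000488). Slc20a1, a phosphate importer, rose from 81.4, 82.2 and 81.15 CPM to 235, 249 and 239.5 CPM (log2 fold change 1.56, SE 0.114, adjusted p = 2.17e-05), and Enpp1, the source of extracellular pyrophosphate, which blocks mineral, rose from 19.5, 21.2 and 21.7 CPM to 40.5, 44.1 and 53.7 CPM (log2 fold change 1.14, SE 0.13, adjusted p = 0.000284). Bglap2 did not pass in the fit of all 9 libraries (adjusted p = 0.0625), and without replicate 1 of either group 4 members rose.

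Tnfsf11, which encodes RANKL, stood at 0.834, 0.956 and 1.82 CPM with Ad-C and 30.6, 36.3 and 38.7 CPM with Ad-Hif1a (log2 fold change 4.88, SE 0.215, adjusted p = 1.43e-06). Low in every Ad-C library, it was high in every Ad-Hif1a library. The study reports from qRT-PCR that silencing Hif2a blocked the rise of this gene with Ad-Hif1a. It also reports that Hif1a siRNA alone did not change the gene. Tnfrsf11b, which encodes OPG, stood at 66.7, 61.7 and 58.96 CPM with Ad-C and 46.1, 72.3 and 101 CPM with Ad-Hif1a, with overlapping groups (log2 fold change 0.16, SE 0.215, adjusted p = 0.591). Ad-Hif1a 1 was below the Ad-C libraries and the other two Ad-Hif1a libraries above them. Without replicate 1 of either group Tnfrsf11b had a log2 fold change of 0.50 and passed (adjusted p = 0.00031 and 0.000264). The ratio of Tnfsf11 to Tnfrsf11b counts was 0.0125, 0.0155 and 0.0309 with Ad-C and 0.663, 0.502 and 0.385 with Ad-Hif1a, a 27.8-fold difference. An exact two-sided permutation test gave p = 0.1, the smallest that 3 against 3 allows.

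Of 13 genes known to act on osteoclasts or their precursors, 2 rose and 3 fell, against 17% and 16.5% of all genes, with a median of 0.22. Besides Tnfsf11, the vitamin D receptor gene Vdr rose from 8.61, 8.32 and 9.11 CPM to 27.3, 27.7 and 35.4 CPM (log2 fold change 1.785, SE 0.144, adjusted p = 3.9e-05). The gene of semaphorin 3A, Sema3a, known to hold osteoclasts back, fell from 163, 173 and 167.5 CPM to 57.3, 82.8 and 92.9 CPM (log2 fold change -1.14, SE 0.146, adjusted p = 0.000558), and Cthrc1, a secreted protein of bone remodeling, fell from 383, 393 and 340.5 CPM to 121, 148 and 193 CPM (log2 fold change -1.298, SE 0.166, adjusted p = 0.000548). Without replicate 3 of either group 4 members rose. Of 9 osteoclast markers listed 5 were tested, of which none rose and 2 fell. Tnfrsf11a, the receptor of RANKL, fell from 9.89, 13.04 and 10.9 CPM to 2.42, 4.73 and 4.61 CPM (log2 fold change -1.56, SE 0.201, adjusted p = 0.000569). Ctsk, cathepsin K, had a log2 fold change of 0.145 ± 0.113 (adjusted p = 0.345).

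FGF genes moved in both directions, with 6 of 16 up, 6 down and a median of 0.32. Fgfr3 stood at 17.01, 20.6 and 21.2 CPM with Ad-C and 1.499, 1.95 and 2.84 CPM with Ad-Hif1a (log2 fold change -3.24, SE 0.195, adjusted p = 7.71e-06), and Fgfr2 stood at 326, 326 and 324 CPM with Ad-C and 75.2, 91.6 and 99.9 CPM with Ad-Hif1a (log2 fold change -1.88, SE 0.13, adjusted p = 1.51e-05). Both are receptors that act in skull bone growth, and both were low in all 3 Ad-Hif1a libraries. Fgf10, a ligand, rose from 33.96, 37.05 and 36.9 CPM to 63.1, 69.97 and 73.04 CPM (log2 fold change 0.93, SE 0.118, adjusted p = 0.000532), and Spry2, a feedback inhibitor, rose from 12.3, 12.4 and 12.8 CPM to 27.2, 23.8 and 29.3 CPM (log2 fold change 1.09, SE 0.139, adjusted p = 0.000532). With all 9 libraries fitted, 3 rose and 4 fell.

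BMP genes rose in 5 of 24 cases and fell in 6, against 17% and 16.5% of all genes, with a median of 0.09. Bmp2, a bone-inducing ligand, stood at 24.7, 24.5 and 22.6 CPM with Ad-C and 4.901, 5.61 and 6.76 CPM with Ad-Hif1a (log2 fold change -2.06, SE 0.17, adjusted p = 4.31e-05). Chrdl1, an antagonist, fell from 64.35, 67.7 and 67.7 CPM to 17.99, 24.5 and 26.4 CPM (log2 fold change -1.55, SE 0.14, adjusted p = 7.31e-05). Fitted with all 9 libraries, 4 rose and 4 fell. With the length offset 8 rose and 6 fell, and 10 rose without replicate 1 of Ad-C and 9 without replicate 1 of Ad-Hif1a. TGF-β genes rose in 10 of 20 cases and fell in 5, with a median of 0.42. Known TGF-β targets were among the largest of these: Tgfbi rose from 75.6, 81.1 and 82.4 CPM to 412, 398 and 382.5 CPM (log2 fold change 2.32, SE 0.122, adjusted p = 3.39e-06), Pmepa1 from 105, 93.8 and 93.5 CPM to 526, 414 and 388 CPM (log2 fold change 2.17, SE 0.123, adjusted p = 5.55e-06) and Ccn2 from 143, 134 and 137 CPM to 468, 478 and 485 CPM (log2 fold change 1.79, SE 0.117, adjusted p = 1.09e-05). Inhba, an activin subunit, rose from 167, 159 and 159.5 CPM to 399, 469.5 and 500.4 CPM, and the ligand Tgfb2 fell from 64.5, 65.9 and 65.5 CPM to 27.2, 30.9 and 32.8 CPM (log2 fold change -1.11, SE 0.124, adjusted p = 0.00025). Over all 9 libraries, 8 rose and 3 fell, and without replicate 2 of either group 3 fell.

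Genes of the extracellular matrix moved in both directions. Of 23 collagens, 4 rose and 7 fell, against 17% and 16.5% of all genes, with a median of -0.25. Col6a3, a chain of collagen VI, stood at 1586, 1548 and 1775 CPM with Ad-C and 339.5, 407 and 472 CPM with Ad-Hif1a (log2 fold change -2.02, SE 0.131, adjusted p = 1.05e-05), and Col2a1, the cartilage collagen, fell from 119.8, 109 and 129.9 CPM to 42.8, 41.7 and 41.8 CPM (log2 fold change -1.503, SE 0.121, adjusted p = 3.81e-05). Col18a1, a basement membrane collagen, rose from 70.9, 68.3 and 76.97 CPM to 134, 124 and 116 CPM (log2 fold change 0.79, SE 0.122, adjusted p = 0.00156). Of 23 proteoglycans and glycoproteins, 9 rose and 10 fell, with a median of -0.04. Npnt, nephronectin, an integrin ligand of osteoblasts, stood at 131.5, 123 and 130.5 CPM with Ad-C and 10.8, 11.6 and 12.8 CPM with Ad-Hif1a (log2 fold change -3.45, SE 0.134, adjusted p = 7.8e-07). Fbln1, fibulin 1, rose from 71.97, 70.3 and 76.8 CPM to 571, 518 and 477 CPM (log2 fold change 2.835, SE 0.131, adjusted p = 1.58e-06), Has2, a hyaluronan synthase, rose from 10.3, 12.65 and 9.49 CPM to 44.4, 59.7 and 80.05 CPM (log2 fold change 2.47, SE 0.198, adjusted p = 3.76e-05), and Tnn, tenascin W, fell from 189, 189 and 208 CPM to 79.2, 80.5 and 77.7 CPM (log2 fold change -1.303, SE 0.116, adjusted p = 6.65e-05). In the fit of all 9 libraries 2 collagens rose and 4 fell, and 6 proteoglycans rose and 7 fell. With the length offset 7 collagens rose and 5 fell, and without replicate 2 of either group 2 rose.

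Cell cycle genes fell in 19 of 28 cases and none rose, with a median of -0.53. Their summed level was 4130 to 4280 CPM with Ad-C and 3050, 2700 and 2490 CPM with Ad-Hif1a. Mki67, a marker of dividing cells, fell from 170.4, 182 and 166 CPM to 58.3, 67.1 and 80.1 CPM (log2 fold change -1.35, SE 0.134, adjusted p = 0.000128), and Ccna2, cyclin A2, fell from 51.1, 55.1 and 48.7 CPM to 24.6, 31.1 and 25.9 CPM (log2 fold change -0.93, SE 0.125, adjusted p = 0.000723). Ccnd1, cyclin D1, fell from 1035, 979 and 1018 CPM to 599, 509 and 455 CPM (log2 fold change -0.965, SE 0.127, adjusted p = 0.000635). Cdkn1c, an inhibitor of division, also fell from 81.1, 81.01 and 68.9 CPM to 31.4, 21.8 and 19.6 CPM (log2 fold change -1.69, SE 0.145, adjusted p = 5.27e-05). With all 9 libraries fitted, 5 fell, without replicate 2 of either group 10 fell, without replicate 3 of either group 1 rose, and with the length offset 1 rose and 20 fell.

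The 15 largest rises at an average log2 CPM above 4 included 9 genes of the groups above (Saa3, Lcn2, Hp, Cxcl5, Cxcl1, Il6, Mmp3, C3 and Tnfsf11). The others were Il13ra2, a decoy receptor of interleukin 13, at 0.5002, 0.337 and 0.268 CPM with Ad-C and 51.8, 53.95 and 49.8 CPM with Ad-Hif1a (log2 fold change 7.11, SE 0.219, adjusted p = 2.2e-07); Marco, a scavenger receptor of macrophages; the adhesion gene Chl1; Serpina3h; Chil1, a chitinase-like protein of inflamed tissue; and the protease gene Pcsk5. Marco went against the macrophage markers and stood at 1.61, 1.52 and 1.02 CPM with Ad-C and 105, 66.4 and 45.2 CPM with Ad-Hif1a (log2 fold change 5.665, SE 0.186, adjusted p = 2.84e-07). Pcsk5 stood at 5.06, 4.61 and 4.88 CPM with Ad-C and 119, 141 and 169 CPM with Ad-Hif1a (log2 fold change 4.87, SE 0.163, adjusted p = 3.17e-07), lowest in Ad-Hif1a 1 and highest in Ad-Hif1a 3. Chl1, Serpina3h and Chil1 had log2 fold changes of 5.545 ± 0.194, 5.05 ± 0.14 and 5.01 ± 0.242 (SE).

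The largest falls at an average log2 CPM above 4 were led by Myh1, a skeletal muscle myosin, at 62.35, 59.4 and 52.1 CPM with Ad-C and 2.13, 3.19 and 1.96 CPM with Ad-Hif1a (log2 fold change -4.58, SE 0.182, adjusted p = 8.46e-07), and by Mrc1. Of 18 skeletal muscle markers listed 5 were tested, of which 4 fell and 1 rose. The riser was Acta1, from 0.778, 0.787 and 0.59 CPM to 8.01, 6.5 and 5.94 CPM (log2 fold change 3.23, SE 0.241, adjusted p = 2.55e-05). The list summed to 68.8 to 87.6 CPM with Ad-C, most of it Myh1, and 12.3 to 15.4 CPM with Ad-Hif1a. The part of muscle cells in this was not tested, and 2 fell at a minimum of 10 counts. Ndnf, a secreted neuronal and endothelial factor, stood at 1044, 942 and 978 CPM with Ad-C and 62.9, 82.6 and 93.8 CPM with Ad-Hif1a (log2 fold change -3.65, SE 0.166, adjusted p = 1.51e-06). Pgm5, aciculin, fell from 211.5, 196 and 209.6 CPM to 27.3, 23.3 and 28.05 CPM (log2 fold change -2.975, SE 0.124, adjusted p = 1.1e-06), and Ccn3, a matricellular protein, fell from 393, 369 and 346 CPM to 51.8, 65.4 and 87.9 CPM (log2 fold change -2.465, SE 0.18, adjusted p = 2.25e-05). In each case all Ad-Hif1a libraries were below all Ad-C libraries. The rest were Npnt, Cybrd1, Iqgap2, Plxnc1, Cd180, Hpgds, AW551984, Tnfrsf19, Sned1 and Glt8d2, with log2 fold changes between -3.45 and -2.097. Of these, Cd180 and Hpgds are known from macrophages and other immune cells and fell beside the macrophage markers, with log2 fold changes of -2.31 ± 0.215 and -2.29 ± 0.171 (SE).

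**Figure D4:**
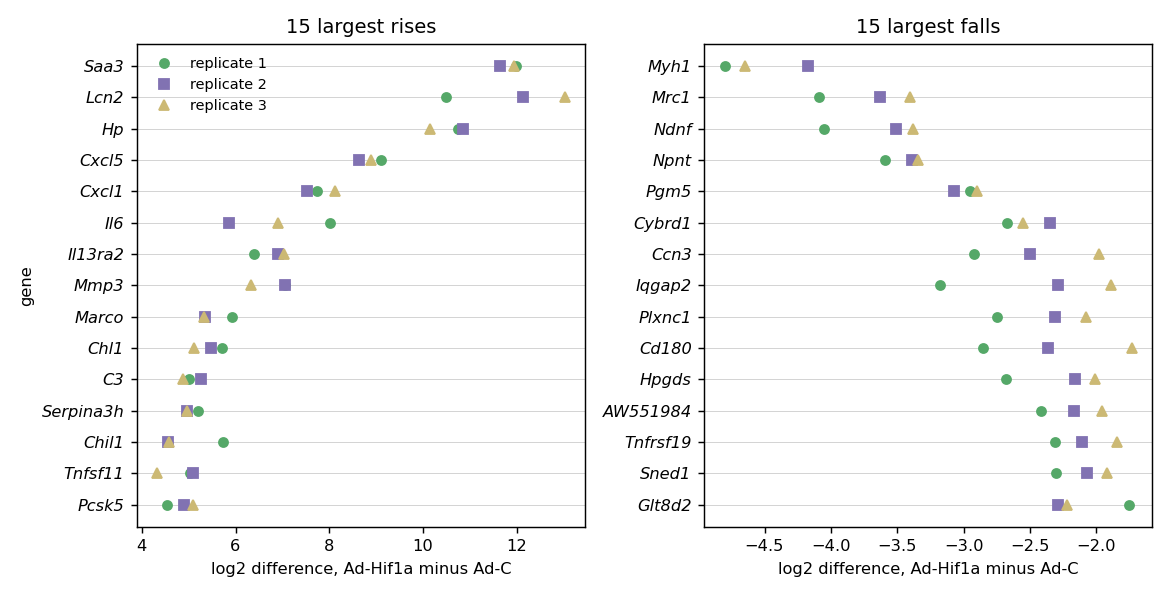
Log2 difference between Ad-Hif1a and Ad-C in replicates 1, 2 and 3 for the 15 largest rises (left) and the 15 largest falls (right), 1 point per replicate number. Saa3, Lcn2 and Hp lie above 10 in every replicate, and replicate 1 gives the lowest value for most of the falls, Glt8d2 among the exceptions.

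**Figure D5:**
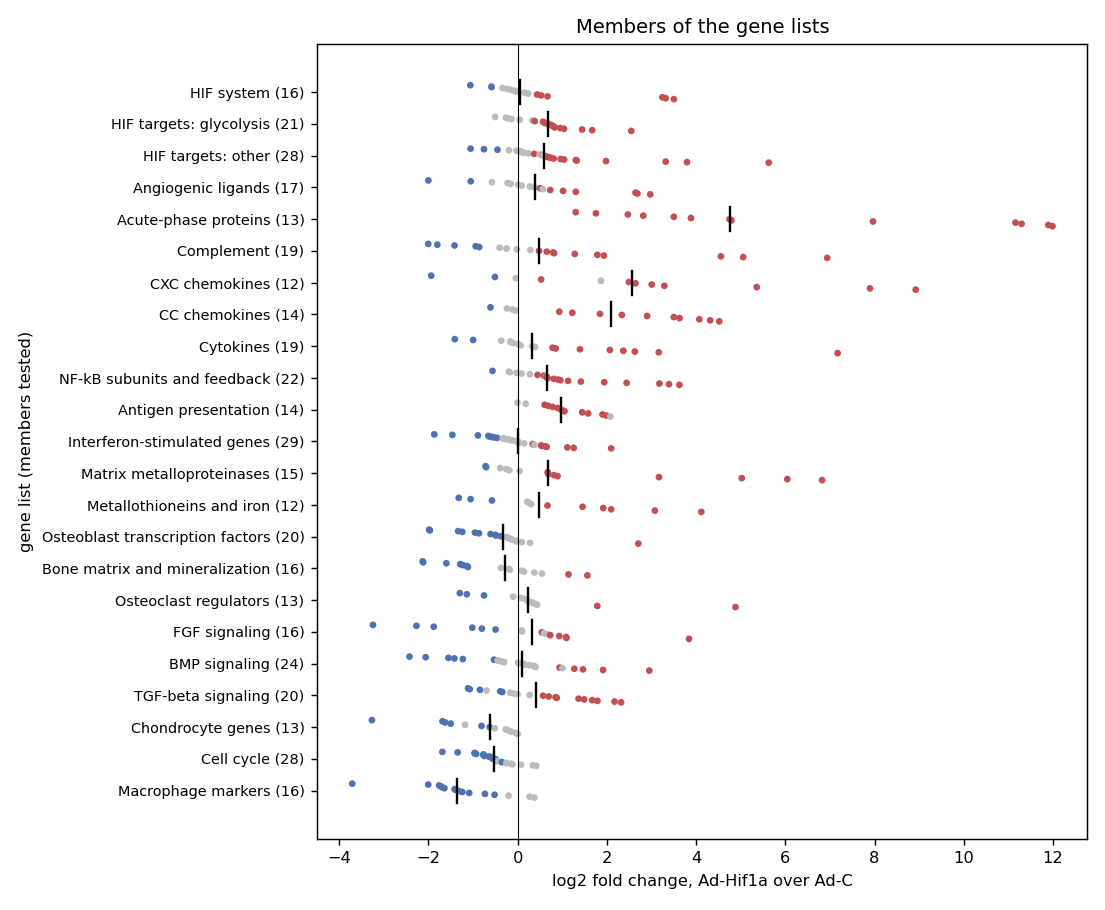
Log2 fold change (Ad-Hif1a over Ad-C) of the tested members of 23 gene lists, 1 point per gene, red for genes that rose, blue for genes that fell at an adjusted p under 0.05, gray for the rest, with a bar at each median. Acute-phase proteins (13 of 13 rose, median 4.75) and macrophage markers (13 of 16 fell, median -1.35) have the highest and the lowest median of the lists shown.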

How the data were processed

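Total RNA of the cells was made into libraries with the CORALL V2 kit. The processing notes deposited by the authors list GRCm39 as the build, and STAR, Salmon, fastp and bcl2fastq 2.20.0.422 as tools, without roles or settings, and whether strand or molecular identifiers were used is not given in the sources used here. The deposited values are counts per gene symbol, whole numbers that were not normalized. Of 40213 symbols per file, 16756 were at 0 in all 6 libraries.

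Genes passing filterByExpr (14062) were scaled by TMM (factors 0.976 to 1.02) and tested in R 4.3.3 with the robust quasi-likelihood test of edgeR 4.0.16 (with limma 3.58.1 and statmod 1.5.0), with terms for group and replicate number. Adjusted p-values are Benjamini-Hochberg over all genes tested, with a threshold of 0.05. Fold changes are of Ad-Hif1a over Ad-C, SE was derived from the F statistic, and a prior count of 2 entered log2 CPM. Alternatives were DESeq2 1.42.0, other scalings and filters, all 9 libraries, each library left out, and an offset for transcript length (longest transcript of GENCODE vM21 per symbol, 94.8% of genes matched). The procedure was tested on simulated data. Floors and bounds cover counting error only, whereas SE also includes the spread between libraries.

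The members and the 49 gene lists were chosen with earlier results of these data known. Named genes are Hif1a and Epas1, the 15 largest rises and 15 largest falls with an average log2 CPM over 4 and 1 direction in all 3 replicate pairs, the 4 members of each list with the lowest p plus the lowest of each direction, and genes the study names beside its RNA-seq. Others are said to be named after their values were seen. A few genes that this rule selects are not reported here. No gene coordinates are printed because the reference here is GRCm38.p6.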

Additional observations from a re-analysis of the deposited data

How the results depend on the processing

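Leaving out 1 library moved the count of changed genes between 2625 and 5964, of risen genes between 1270 and 3042, of fallen genes between 1347 and 2934, and of genes changed over 2-fold between 1580 and 2174. With the replicate number in the fit, this takes the whole pair out of the group difference and lowers the degrees of freedom. The fit of all 9 libraries called 1624 genes, 871 risen and 753 fallen. All other alternatives stayed within 1.5 times of the main counts: 4236 to 5331 changed genes, with DESeq2 at 4236 and no filter at 5331. Risen genes were 50.8% of the calls, against 45.3% with upper-quartile scaling, 46.3% without composition factors and 53% with the transcript length offset, which shared 3834 calls with the reported 4706. Without the replicate block 4505 genes changed, 2316 risen and 2189 fallen, and 2 mitochondrial transcripts fell. Deviations of same-numbered libraries correlated at 0.043, -0.023 and 0.079, so the data do not show that the numbers pair the samples. The block was used because the study's methods name a paired test. No named gene reversed. Of 207 named genes that changed, 165 did so in every alternative that tested them. At these depths genes with few counts, such as Bglap, Egln3 and Twist2, carry more counting error than abundant ones.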

Other observations

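Of all genes tested 17% rose and 16.5% fell, and the shares of the lists below are to be read against these. Of 12 metallothionein and iron genes tested, 6 rose and 3 fell, with a median log2 fold change of 0.49. Mt2, a metal-binding metallothionein, stood at 25.1, 25.1 and 23.96 CPM with Ad-C and 545, 425 and 340 CPM with Ad-Hif1a (log2 fold change 4.12, SE 0.159, adjusted p = 7.8e-07), and Mt1 at 73.5, 67.6 and 67.9 CPM with Ad-C and 890.3, 536 and 423 CPM with Ad-Hif1a (log2 fold change 3.075, SE 0.188, adjusted p = 8.37e-06). Fth1, the ferritin heavy chain that stores iron, rose from 3066, 2976 and 2990 CPM to 16770, 12850 and 9895 CPM (log2 fold change 2.096, SE 0.168, adjusted p = 3.81e-05), and Slc39a14, a zinc and iron importer, rose from 52.7, 52.3 and 56.98 CPM to 165, 200.2 and 257 CPM (log2 fold change 1.92, SE 0.138, adjusted p = 1.98e-05). Of 15 antioxidant and nitric oxide genes, 4 rose and 4 fell, with a median of 0.15 and none that fell without replicate 2 of either group, and 2 that fell in the fit of all 9 libraries. Sod3, the secreted superoxide dismutase, rose from 72.5, 64.03 and 78.3 CPM to 538, 450.2 and 573 CPM (log2 fold change 2.86, SE 0.12, adjusted p = 1.15e-06). Cybb, a subunit of the phagocyte oxidase, fell from 116, 127 and 117 CPM to 75.9, 82.02 and 84.9 CPM (log2 fold change -0.57, SE 0.115, adjusted p = 0.00587).

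Genes of neighboring lineages moved too. Of 12 adipogenic genes, 4 rose and 4 fell (median -0.33), with 2 and 4 in the fit of all 9 libraries. Pparg, the master regulator of fat cells, fell from 7.002, 6.63 and 6.65 CPM to 0.9225, 0.9455 and 0.8845 CPM (log2 fold change -2.87, SE 0.229, adjusted p = 3.67e-05), whereas Cebpb and Cebpd, factors of early fat cell differentiation and of inflammation, rose with log2 fold changes of 2.68 ± 0.152 and 2.16 ± 0.128 (SE). Of 13 chondrocyte genes, none rose and 6 fell (median -0.63). Cnmd, chondromodulin, fell from 7.725, 9.16 and 9.27 CPM to 0.692, 0.9455 and 1.07 CPM (log2 fold change -3.27, SE 0.224, adjusted p = 1.43e-05). In the fit of all 9 libraries 2 chondrocyte genes fell.

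In the Wnt list 8 of 27 rose and 4 fell (median 0.24), with 6 and 2 in the fit of all 9 libraries. The target Ccn4 and the inhibitor Sfrp1 rose with log2 fold changes of 1.52 ± 0.129 and 1.42 ± 0.132 (SE), and the receptor gene Lgr5 fell from 137, 138 and 148 CPM to 32.98, 42.3 and 52.7 CPM (log2 fold change -1.75, SE 0.141, adjusted p = 3.87e-05). In the IGF list 4 of 13 rose and 3 fell (median -0.02). The binding protein gene Igfbp3 rose from 43.6, 42.9 and 42.8 CPM to 167, 190.5 and 202 CPM (log2 fold change 2.11, SE 0.125, adjusted p = 7.12e-06), and Igfbp2 fell from 326, 304 and 297 CPM to 182, 152 and 128 CPM (log2 fold change -1.02, SE 0.124, adjusted p = 0.000424). Without replicate 2 of either group, and in the fit of all 9 libraries, 1 member of this list fell. Of 7 Notch genes, none rose and 2 fell, Lfng and Notch3, neither of which passed in the fit of all 9 libraries (adjusted p = 0.114 and 0.0517), and 4 fell without replicate 3 of either group. Of 23 axon guidance genes, 7 rose and 9 fell (median 0.00), with 3 and 4 in the fit of all 9 libraries. Ntn1, netrin 1, rose from 13.1, 9.78 and 13.4 CPM to 51.55, 51 and 63.7 CPM (log2 fold change 2.199, SE 0.141, adjusted p = 1.03e-05), and the ephrin gene Efnb1 fell from 50.6, 43.8 and 51.3 CPM to 20.9, 20.03 and 21.3 CPM (log2 fold change -1.22, SE 0.125, adjusted p = 0.000151). Of 20 immediate early genes, 6 rose and 7 fell (median -0.07). Ier3 and Junb rose with log2 fold changes of 1.8 ± 0.139 and 1.58 ± 0.15, while Egr1 fell from 50.4, 41.5 and 54.6 CPM to 21.04, 18.1 and 19.65 CPM (log2 fold change -1.31, SE 0.13, adjusted p = 0.000127). Of this list 3 fell without replicate 2 of either group and 2 in the fit of all 9 libraries.

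Of 18 unfolded protein and integrated stress response genes, 5 rose and 2 fell (median 0.15), and none passed in the fit of all 9 libraries; without replicate 2 of either group 2 rose and none fell, and with the length offset 4 fell. Of 20 nuclear-encoded respiratory chain genes, 7 rose and none fell (median 0.31), with 1 in the fit of all 9 libraries and 4 without replicate 2 of either group. That 1 was Ndufa4l2, a known HIF target, which stood at 3.06, 3.37 and 2.57 CPM with Ad-C and 16.03, 12.5 and 12.45 CPM with Ad-Hif1a (log2 fold change 2.18, SE 0.185, adjusted p = 5.07e-05). Of 13 mitochondrial transcripts, 1 rose and 10 fell (median -0.71), with none called in the fit of all 9 libraries and 4 that fell without replicate 2 of either group. The mitochondrial share of the libraries given above is the sum of these 13 transcripts, so it is not a separate observation. The source of the fall was not tested. Of 17 cholesterol and fatty acid synthesis genes, 2 rose and 4 fell (median -0.17), with none and 1 in the fit of all 9 libraries, and none and 2 without replicate 2 of either group.

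Markers of other cells were counted as well. Of 12 endothelial markers listed 4 were tested, of which 3 rose and 1 fell. Without replicate 2 of either group, and in the fit of all 9 libraries, 1 rose. Erg, an endothelial transcription factor, rose from 5.67, 4.67 and 5.79 CPM to 13.2, 12.8 and 13.2 CPM (log2 fold change 1.29, SE 0.164, adjusted p = 0.000534), and Kdr, the VEGF receptor, fell from 4.67, 4.497 and 3.59 CPM to 0.9802, 1.36 and 1.64 CPM (log2 fold change -1.68, SE 0.281, adjusted p = 0.0023), a call lost in the fit of all 9 libraries (adjusted p = 0.0908). Of 12 smooth muscle and pericyte markers 1 rose and 3 fell, with none and 1 in the fit of all 9 libraries and none without replicate 2 of either group. Of 12 neural and glial markers listed 8 were tested. Of these 1 rose and 4 fell, with none and 2 in the fit of all 9 libraries. The 1 that rose, S100b, also did not pass without the replicate number in the fit (adjusted p = 0.0581), without replicate 1 of Ad-C or Ad-Hif1a (0.0761 and 0.106) and with the length offset (0.053). Of 8 lymphocyte markers listed 1 was tested, Cd4, which fell, and of 8 erythroid markers listed none was tested. Of 6 nuclear-retained RNAs 1 rose, against 4 with the length offset and none in the fit of all 9 libraries. Of 12 osteoblast markers 1 rose, 5 fell and 6 did not pass, with 3 that rose without replicate 1 of either group, 2 that rose with the length offset and 3 that fell in the fit of all 9 libraries. The 1 that rose was Postn, from 509, 544 and 529 CPM to 1053, 1284 and 1403 CPM (log2 fold change 1.23, SE 0.127, adjusted p = 0.000159).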
